A study of Mus musculus with 20 samples.

Results

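Single-cell RNA-sequencing (scRNA-seq) data of mouse models of chronic lymphocytic leukemia (CLL) were examined for 6 genes of regulatory cytokine signalling: the cytokine genes Il10, Ebi3 and Tgfb1 and the receptor genes Il10ra, Il10rb and Tgfbr2. The genes were listed by name under a rule that uses no measured value, and make up 6 of the 31053 genes in each count matrix. The data comprise 20 libraries of unsorted live cells from 13 mice labelled C57BL/6N, taken when the mice met the criteria for euthanasia. Spleens came from 4 Eµ-PRMT5/TCL1, 4 Eµ-TCL1 and 5 Eµ-PRMT5 mice, and lymph nodes (LN) from 3 Eµ-TCL1 and 4 Eµ-PRMT5/TCL1 mice. Each LN came from a mouse whose spleen was also sequenced.

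Eµ-PRMT5 and Eµ-TCL1 mice carry the human PRMT5 or TCL1 cDNA under an immunoglobulin heavy chain promoter and the Eµ enhancer, which are active in B cells, and Eµ-PRMT5/TCL1 mice carry both. PRMT5 is an arginine methyltransferase and TCL1 an oncoprotein that activates AKT. No wild-type mice were analysed here, so levels are compared only between transgenic groups. The labels do not give the age of the mice or the founder line behind each Eµ-PRMT5 or Eµ-PRMT5/TCL1 mouse. The mouse of Eµ-PRMT5 spleen 3 carries an identifier that the study's methods list among the transgenic founders. The labels mark the mouse of Eµ-PRMT5/TCL1 spleen 1 and LN 2 with the suffix RT. The bearing of founder line or suffix on these genes was not tested. Mice were the replicates in the comparisons of genotypes and tissues.

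Interleukin-10 (IL-10) is a secreted cytokine that dampens inflammation. Regulatory B cells, plasma cells, subsets of CD4 T cells and macrophages are known to make it, and CLL cells share this property with the B-1 and regulatory B cells of mice. IL-10 binds a receptor of 2 chains. The IL10RA chain gives specificity for IL-10, the IL10RB chain is shared with receptors of related cytokines, and the bound receptor signals through JAK1, TYK2 and STAT3. Ebi3 encodes the subunit that IL-27 and IL-35 have in common. Tgfb1 encodes TGF-β1, which is secreted in a latent form, and Tgfbr2 the receptor chain that binds the active form and recruits TGFBR1.

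On the GRCm38 build with GENCODE vM21 genes, Il10 lies at chr1:131019845-131024974 on the plus strand, Ebi3 at chr17:55952640-55957022 (plus), Tgfb1 at chr7:25687002-25705077 (plus), Il10ra at chr9:45253837-45269149 (minus), Il10rb at chr16:91406164-91425834 (plus) and Tgfbr2 at chr9:116084293-116175360 (minus). Reads were counted over genes from their 3′ ends as unique molecular identifiers (UMIs), each of which marks a captured RNA molecule. Capture near the 3′ end does not scale with transcript length, and levels are compared here between cells and libraries rather than between genes.

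Libraries held between 9348094 and 72440894 UMIs, and 688 to 7631 cells each were kept, 84231 in all. Cell classes were drawn by UMI limits on defining genes. B cells had at least 3 UMIs of Cd79a and Cd79b, no Cd3d, Cd3e or Cd3g, and under 20 of Jchain. This gave 9538 B cells from spleens of Eµ-TCL1 mice, 8883 from those of Eµ-PRMT5/TCL1 mice and 4281 from those of Eµ-PRMT5 mice, and 3102 and 5086 from the LN of Eµ-TCL1 and Eµ-PRMT5/TCL1 mice, with 195 to 5136 per library. The gate held B cells by markers it did not use: Cd74 was seen in a median of 100% of B cells, Ms4a1 in 87.9% and Ighm in 96.0%. B cells of Eµ-PRMT5 spleen 4 stood apart, with a summed level of the 8 B cell markers of 6507 CPM (the UMIs of a gene relative to all UMIs of the class in that library) against 17855 to 34856 CPM in the other 19 libraries. Barcodes shared between libraries numbered 4556 over 190 pairs, against 4536.92 expected from random draws of the barcode pool.

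Il10 UMIs were counted in the B cells of every library, at a level that varied widely between mice of the same genotype. In Eµ-PRMT5 spleens 1 to 5, the Il10 level in B cells was 2.24, 63.0, 86.3, 33.7 and 100.01 CPM. It was 93.4, 15.9, 22.3 and 21.3 CPM in spleens 1 to 4 of the Eµ-TCL1 mice, and in those of the Eµ-PRMT5/TCL1 mice it was 62.0, 42.9, 48.7 and 158.2 CPM. All 3 spleen groups overlapped, and each held a library well above or below the rest.

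Il10 in LN B cells covered a similar range. It was 216.7, 34.8 and 91.2 CPM in Eµ-TCL1 LN 1 to 3, and 26.7, 131.5, 77.3 and 84.4 CPM in Eµ-PRMT5/TCL1 LN 1 to 4. Group means of Il10, with the SD over libraries, were 114 ± 93.1 CPM in the LN of Eµ-TCL1 mice (n = 3) and 79.98 ± 42.9 CPM in those of Eµ-PRMT5/TCL1 mice (n = 4). In spleens they were 77.9 ± 54.1 CPM for Eµ-PRMT5/TCL1 (n = 4), 57.0 ± 39.6 CPM for Eµ-PRMT5 (n = 5) and 38.2 ± 36.9 CPM for Eµ-TCL1 mice (n = 4). The order from highest to lowest was thus Eµ-TCL1 LN, Eµ-PRMT5/TCL1 LN, Eµ-PRMT5/TCL1 spleen, Eµ-PRMT5 spleen and Eµ-TCL1 spleen, and every pair of neighbours in it differed by less than the larger SD of the pair. In a level summed over B cells, fewer expressing cells and less RNA per cell cannot be told apart.

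**Figure D1:**
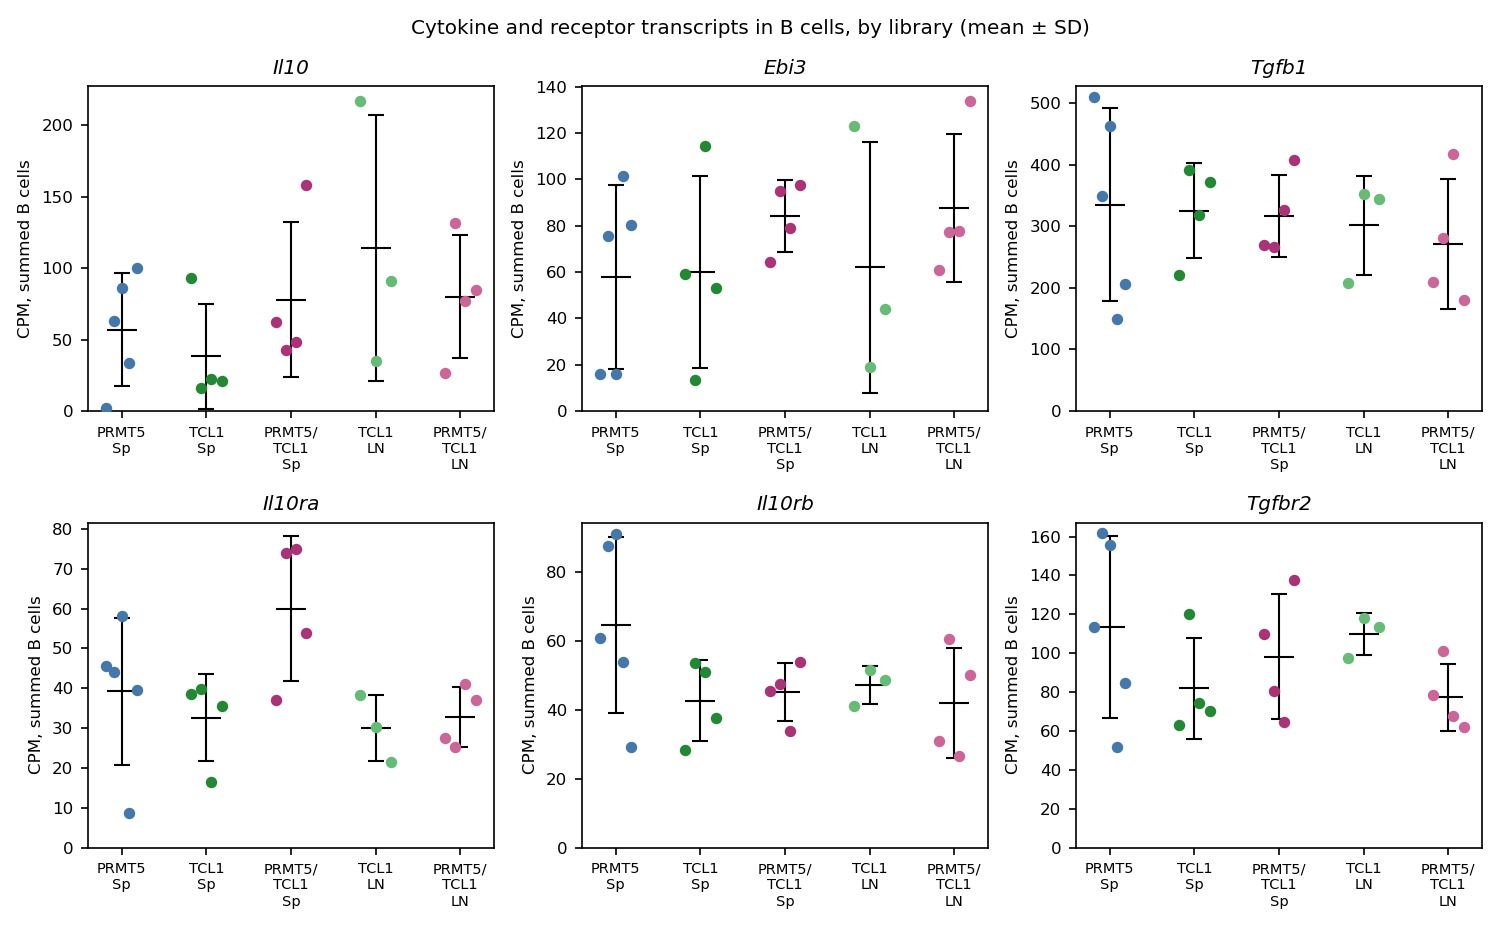
Level of each of the 6 genes in B cells (CPM, vertical axis) by group, with 1 point per library and the mean ± SD over libraries as the horizontal and vertical lines (Sp, spleen; LN, lymph node). The Il10 points of every group overlap those of the others, from 2.24 CPM in Eµ-PRMT5 spleen 1 to 216.7 CPM in Eµ-TCL1 LN 1.

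The share of B cells with at least 1 Il10 UMI ran from 0.848% in Eµ-PRMT5 spleen 1 (11 of 1297 cells, exact 95% interval 0.424 to 1.51%) to 37.7% in Eµ-PRMT5/TCL1 spleen 4 (941 of 2499 cells, 35.8 to 39.6%). In 18 of 20 libraries more than 10% of B cells carried an Il10 UMI. These intervals cover counting error only. Because a cell with more UMIs is likelier to show a rare RNA, each cell was also thinned to 1000 UMIs. The thinned share with an Il10 UMI averaged 6.69% in the LN of Eµ-TCL1 mice and 5.43% in those of Eµ-PRMT5/TCL1 mice. In spleens it averaged 5.69% for Eµ-PRMT5/TCL1, 3.63% for Eµ-PRMT5 and 3.24% for Eµ-TCL1 mice. In T cells, at the same depth, group means of the share lay between 0.0743% and 1.15%, and in myeloid cells between 0 and 0.238%. Before thinning, group medians of the UMIs per cell were 4960.25 to 7737 in B cells and 3895.5 to 5499 in T cells.

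Eµ-PRMT5 spleen 1 was the exception to this contrast. There the thinned share was 0.140% in B cells and 1.18% in T cells, and the B cells held 16 Il10 UMIs in 11 cells, with up to 5 in a cell. Their level of 2.24 CPM was close to the 1.48 CPM of CD8 T cells in that library and below the 23.2 CPM of its free RNA, taken from barcodes with at most 100 UMIs. Free RNA held Il10 at 14.97 to 137.6 CPM over the libraries (median 30.5), and B cells were above the free RNA of their library in 18 of 20, the other exception being Eµ-TCL1 LN 3 (91.2 against 100.7 CPM). The ratio of the B cell to the free RNA level was 0.097 to 6.60 (median 1.75). Some of the 18 were barely above, at 1.05 in Eµ-PRMT5/TCL1 LN 1, 1.06 in Eµ-TCL1 spleen 2 and 1.15 in Eµ-PRMT5/TCL1 spleen 4. Each level is relative to all UMIs of its own pool and does not give the amount of free RNA in a cell. A ratio near 1 thus cannot tell Il10 made by B cells from Il10 taken up as free RNA. How many of the B cells with 1 Il10 UMI hold it from free RNA was not tested. Within the Il10-bearing cells the distribution was long-tailed. Of 5668 B cells with an Il10 UMI in the other 19 libraries, 53.3% had exactly 1, and the highest cell held 48.

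No difference between groups in the share of B cells with an Il10 UMI passed the test. At 1000 UMIs it was 2.44 points higher in Eµ-PRMT5/TCL1 than in Eµ-TCL1 spleens (exact two-sided permutation test, p = 0.371), 0.385 points higher in Eµ-PRMT5 than in Eµ-TCL1 spleens (permutation p = 0.825) and 2.06 points higher in Eµ-PRMT5/TCL1 than in Eµ-PRMT5 spleens (permutation p = 0.381). In LN it was 1.26 points lower in Eµ-PRMT5/TCL1 than in Eµ-TCL1 mice (permutation p = 0.571), a design of 4 against 3 in which the smallest possible p is 0.0571. Over the 7 mice with both tissues it was 1.14 points higher in LN than in spleen, in 6 of 7 mice (exact paired permutation test, p = 0.5625). The remaining mouse lowered this mean, with 2.47% in Eµ-PRMT5/TCL1 LN 1 and 11.1% in its spleen. Benjamini-Hochberg (BH) adjusted values over these 5 tests lay between 0.714 and 0.825. Single spleens stood out in these shares. The thinned share was 11.1% in Eµ-PRMT5/TCL1 spleen 4 against 3.67 to 4.25% in spleens 1 to 3. In Eµ-TCL1 mice it was 7.88% in spleen 1 against 1.46 to 1.86% in spleens 2 to 4.

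Between Eµ-PRMT5/TCL1 and Eµ-TCL1 B cells, which differ by design in the PRMT5 transgene, 0 of the 6 members passed in spleen or LN. The B cell gate did not separate leukemic from other B cells, so levels are those of both together. Counts were summed over the B cells of each library and fitted with edgeR's quasi-likelihood test, and a gene was called at a BH adjusted p under 0.05 over all genes tested. In spleen, where 0.00866% of 11541 genes were called (1 gene by edgeR and 21 by DESeq2), Il10 was higher in Eµ-PRMT5/TCL1 B cells by 0.84 ± 0.81 on the log2 scale (SE), with a 95% interval from -0.90 to 2.57. That interval spans both a lower level and one several-fold higher, so that a difference of this size was not resolvable with 4 mice against 4. In simulated data for spleen B cells, 8.96% of 2-fold and 72.7% of 4-fold changes were recovered, so most 2-fold changes would be missed. Single libraries moved it: the Il10 difference was 1.79 without Eµ-TCL1 spleen 1 (adjusted p = 0.675, edgeR) and 0.42 without Eµ-PRMT5/TCL1 spleen 4. Il10ra had the smallest p of the members here. It measured 37.0, 74.1, 75.0 and 53.8 CPM in spleens of Eµ-PRMT5/TCL1 mice and 38.5, 39.8, 16.4 and 35.7 CPM in those of Eµ-TCL1 mice, a difference of 0.81 ± 0.42 (adjusted p = 1, edgeR). The Eµ-PRMT5/TCL1 values of Il10ra lay above the Eµ-TCL1 values except for spleen 1. Of all genes, 4.51% had an unadjusted p under 0.05 and 3.28% did not overlap between the groups, and 0 of 6 members met either.

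The other members were closer between these spleens. Ebi3 was higher in Eµ-PRMT5/TCL1 B cells by 0.37 ± 0.68, Tgfbr2 by 0.13 ± 0.28, and Il10rb and Tgfb1 differed by -0.03 ± 0.29 and -0.14 ± 0.30 on the log2 scale. In LN B cells 0% of 10892 genes were called by edgeR, 735 (6.75%) had an unadjusted p under 0.05, 6.29% did not overlap and DESeq2 called 63. Members met none of these. The Il10 difference, Eµ-PRMT5/TCL1 minus Eµ-TCL1 LN, was -0.33 ± 0.63 on the log2 scale (95% interval -1.75 to 1.101), and 0.36 without Eµ-TCL1 LN 1. Tgfbr2 was 78.7, 101.2, 67.6 and 62.1 CPM in Eµ-PRMT5/TCL1 LN and 97.7, 118.1 and 113.6 CPM in Eµ-TCL1 LN, a difference of -0.45 ± 0.21 (adjusted p = 0.771, edgeR). The groups overlapped at 1 library.

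Comparisons with Eµ-PRMT5 spleens gave the same count of 0 among the 6 members. Against Eµ-TCL1 mice, edgeR called 0.026% of genes (3 of 11541), 17.1% had an unadjusted p under 0.05 and 5.01% did not overlap. Against Eµ-PRMT5/TCL1 mice it called 0%, where 1009 genes (8.74%) had an unadjusted p under 0.05, 1.83% did not overlap and DESeq2 called 113. No member met these either. Il10 was higher in Eµ-PRMT5 than in Eµ-TCL1 B cells by 0.48 ± 0.77, and higher in Eµ-PRMT5/TCL1 than in Eµ-PRMT5 B cells by 0.36 ± 0.76. Il10rb was highest in Eµ-PRMT5 spleens, with a mean of 64.4 ± 25.6 CPM (SD, n = 5) against 45.1 ± 8.33 CPM for Eµ-PRMT5/TCL1 (n = 4) and 42.6 ± 11.7 CPM for Eµ-TCL1 mice (n = 4). Its difference was 0.50 ± 0.27 from Eµ-TCL1 (adjusted p = 0.374, edgeR) and -0.52 ± 0.27 for Eµ-PRMT5/TCL1 minus Eµ-PRMT5 (adjusted p = 0.606, edgeR). These 2 comparisons share the Eµ-PRMT5 libraries. Without Eµ-PRMT5 spleen 4, whose B cells stood apart, the Il10 differences were 0.56 and 0.28 in the order given, neither of them called. Without Eµ-TCL1 spleen 1 the former was 1.44 (adjusted p = 0.369, edgeR), and without Eµ-PRMT5/TCL1 spleen 4 the latter was -0.08.

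The remaining members were spread within each group over ranges that overlapped those of the other groups. Ebi3 in B cells was 15.8, 75.4, 16.2, 101.7 and 80.4 CPM in spleens of Eµ-PRMT5 mice, 59.1, 13.6, 114.3 and 53.2 CPM in those of Eµ-TCL1 mice and 64.3, 95.2, 78.9 and 97.8 CPM in those of Eµ-PRMT5/TCL1 mice. The low Ebi3 values of the first 2 groups had no counterpart in Eµ-PRMT5/TCL1 spleens. Tgfb1 had group means from 272 ± 106 CPM in Eµ-PRMT5/TCL1 LN (SD, n = 4) to 335 ± 156 CPM in Eµ-PRMT5 spleens (n = 5). Tgfbr2 had group means from 77.4 ± 17.3 CPM in Eµ-PRMT5/TCL1 LN (n = 4) to 114 ± 46.7 CPM in Eµ-PRMT5 spleens (n = 5). All 5 groups overlapped their neighbours for both genes.

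Within mice, the clearest tissue pattern of a member was that of Il10ra, which was lower in LN than in spleen B cells of all 7 mice. Il10ra measured 38.3, 30.2 and 21.6 CPM in the LN of the 3 Eµ-TCL1 mice and 38.5, 39.8 and 35.7 CPM in their spleens. In the 4 Eµ-PRMT5/TCL1 mice it measured 27.6, 25.4, 41.1 and 37.0 CPM in LN and 53.8, 36.9, 75.0 and 74.1 CPM in spleen. The smallest gap was in 1 Eµ-TCL1 mouse, at 38.3 against 38.5 CPM. Of all 11908 genes, 4.01% moved the same way in every mouse, so this sign pattern alone is not rare.

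The paired edgeR fit gave Il10ra a difference of -0.62 ± 0.11 on the log2 scale, with a 95% interval from -0.86 to -0.38. Its adjusted p was 0.0741, so it was not called. In this comparison edgeR called 0.0336% of genes (4 of 11908) and 0 of 6 members. At an unadjusted p under 0.05 were 11.2% of genes and 1 member, Il10ra. DESeq2 gave Il10ra a difference of -0.61 with an adjusted p of 0.000126, and edgeR without the filter on low counts gave -0.63 with an adjusted p of 0.0334. Over 14 settings the adjusted p of Il10ra ran from 0.000126 to 0.552, with differences between -0.67 and -0.57. DESeq2 called 289 genes in all.

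Il10 itself was higher in LN than in spleen B cells of 6 of 7 mice. The Eµ-TCL1 mice had 216.7, 34.8 and 91.2 CPM in LN and 93.4, 15.9 and 21.3 CPM in spleen. Of the Eµ-PRMT5/TCL1 mice, 3 had 131.5, 77.3 and 84.4 CPM in LN and 62.0, 48.7 and 42.9 CPM in spleen, while the other had 26.7 CPM in LN 1 and 158.2 CPM in its spleen. The difference over 7 mice was 0.79 ± 0.42 on the log2 scale (adjusted p = 0.534, edgeR). Without Eµ-PRMT5/TCL1 LN 1 it was 1.18 with an adjusted p of 0.0332, and over the 14 settings the adjusted p ran from 0.0332 to 0.890.

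The remaining members showed no common direction between tissues. Ebi3 was higher in LN in 4 of 7 mice, Il10rb in 4, Tgfbr2 in 3 and Tgfb1 in 2, with adjusted p between 0.670 and 0.959 (edgeR). The change between tissues did not differ detectably between genotypes: the difference of the LN minus spleen change, Eµ-PRMT5/TCL1 minus Eµ-TCL1, was -1.16 ± 0.78 for Il10, -0.29 ± 0.22 for Il10ra and -0.57 ± 0.28 for Tgfbr2 (adjusted p = 1 for each, edgeR).

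**Figure D2:**
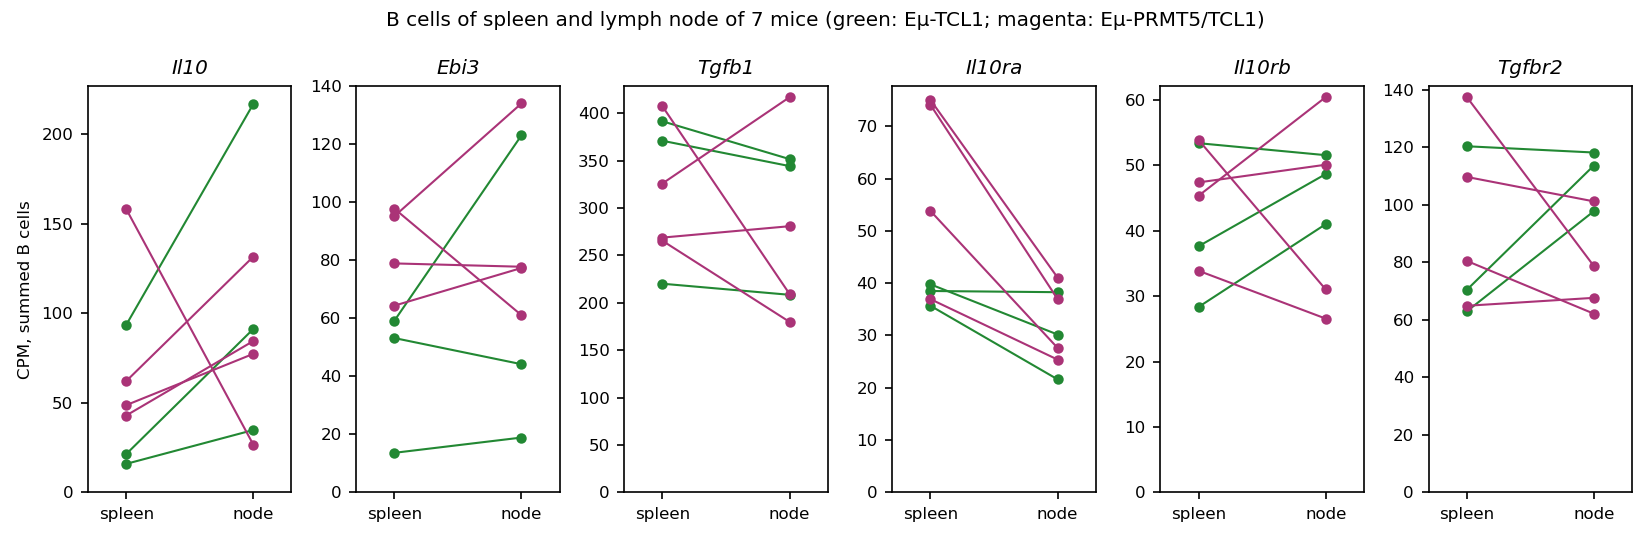
Level of each gene in B cells (CPM, vertical axis) in the spleen and lymph node of 7 mice, with a line joining the tissues of a mouse (green, Eµ-TCL1; magenta, Eµ-PRMT5/TCL1). Every Il10ra line falls from spleen to node, the flattest from 38.5 to 38.3 CPM, while 6 of 7 Il10 lines climb and the remaining one runs from 158.2 to 26.7 CPM.

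Plasma cells, set apart by at least 20 Jchain UMIs, carried Il10 at levels like those of B cells. Over the 14 libraries with at least 20 plasma cells the Il10 level lay between 29.9 and 261 CPM, and it was above that of B cells of the same library in 8 of 14. The highest was Eµ-PRMT5/TCL1 spleen 4, the spleen with the highest B cell level. In that library 62.6% of 609 plasma cells had an Il10 UMI. In Eµ-PRMT5 spleen 1, whose B cells had the lowest Il10 level, 47 plasma cells gave 137 CPM. Plasma cells were at the same time low in 3 other members, each below the B cells of the same library in 14 of 14: Il10ra had group means of 1.57 to 4.87 CPM in plasma cells against 30.02 to 59.97 CPM in B cells, Tgfb1 41.3 to 123 CPM against 272 to 335 CPM, and Tgfbr2 31.6 to 56.3 CPM against 77.4 to 114 CPM. Il10rb did not share this, being higher in plasma than in B cells in 10 of 14 libraries. These levels are relative to all UMIs of the class, and immunoglobulin RNA was not set aside. In the median library, Il10ra was seen in 3.61% of plasma and 21.2% of B cells, Tgfb1 in 44.3% and 80.4%, and Tgfbr2 in 36.0% and 49.0%.

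Myeloid cells, gated on Tyrobp, Fcer1g and Lyz2, were the reverse for the IL-10 pathway. Il10 was lower than in B cells in 17 of 17 libraries with enough cells, at 0 to 4.84 CPM. Its 58 UMIs over 20 libraries were below the 166 estimated for free B cell RNA from Ighm, as described for T cells below. RNA of both receptor chains was higher in myeloid than in B cells in most libraries. Il10rb was higher in 17 of 17 libraries (group means 103 to 131 CPM) and Il10ra in 14 of 17 (38.3 to 87.4 CPM). Ebi3 was present in myeloid cells at group means of 63.8 to 104 CPM, above B cells in 11 of 17 libraries. Tgfbr2 had group means of 15.8 to 41.4 CPM in myeloid cells, below both B and T cells in 17 of 17. The gate held markers of monocytes and neutrophils: Csf1r was seen in a median of 44.7% of its cells and S100a8 in 69.8%, while the macrophage marker C1qa was seen in 0 to 19.05%.

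Within the myeloid gate the members split between its granulocytic cells, which had no Csf1r UMI and at least 2% of their UMIs from S100a8 and S100a9, and its Csf1r-bearing cells. Ebi3 was at 113 to 340 CPM in the granulocytic cells (median 231, 13 libraries) and at 15.98 to 64.5 CPM in the Csf1r-bearing cells (median 31.9, 16 libraries), with no overlap. Il10ra had the opposite order, at 3.74 to 24.2 CPM in granulocytic and 62.4 to 188 CPM in Csf1r-bearing cells. Il10rb did not separate them, with medians of 102 and 112 CPM. Il10 had a median of 0 in both.

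T cells carried the TGF-β genes at levels above those of B cells in most libraries. Tgfb1 was above the B cell level in 15 of 20 libraries, with group means of 263 to 512 CPM, and Tgfbr2 in 17 of 20, with group means of 121 to 162 CPM. Myeloid cells were above T cells for Tgfb1 in 10 of 17 libraries. Il10rb was above the B cell level in 15 of 20 and Il10ra in 9 of 20, so that Il10ra did not separate the classes. Ebi3 in T cells was 1.04 to 7.42 CPM by group, below B cells in 20 of 20 libraries. Since lysed B cells shed RNA into all droplets, the level that such RNA would give T cells was computed from their Ighm. All UMIs of this heavy chain RNA in gated T cells were taken as free RNA, which was not tested. For Tgfb1 it came to 1867 UMIs of the 63055 seen. For Ebi3 it came to 371 of 421 in sum, with 84.3 expected against 7 seen in Eµ-TCL1 LN 1 alone, and 15 of 20 libraries were above their own expected count. This estimate takes the ratio of each gene to Ighm from gated B cells, not from the free RNA itself. In Eµ-TCL1 LN 1, Ebi3 was at 123 CPM in B cells and 33.4 CPM in free RNA. The estimate can thus be too high or too low, and how much T cell Ebi3 came from free RNA was not tested. Ebi3 had a median of 9.01 CPM in CD4 T cells (14 libraries) and 0.777 CPM in CD8 T cells (20 libraries).

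Shares of cells with a UMI did not follow the levels for every gene, since Tgfb1 and Tgfbr2 were seen in fewer T than B cells. In the median library, Ebi3 was seen in 35.3% of B cells and 1.06% of T cells, Tgfb1 in 80.4% and 71.1%, Il10ra in 21.2% and 14.6%, Il10rb in 28.0% and 30.5%, and Tgfbr2 in 49.0% and 47.0%. In plasma cells the median shares were 31.5% for Il10, 20.6% for Ebi3, 44.3% for Tgfb1 and 3.61% for Il10ra. In myeloid cells they were 38.3% for Ebi3, 75.0% for Tgfb1 and 36.1% for Il10ra. Cells differed in depth between classes, so these shares are set beside the CPM and not ranked on their own.

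Il10 in T cells was uneven across libraries. T cells held 972 Il10 UMIs where the Ighm-based estimate gave 436, and 12 of 20 libraries were above their own expected count. The T cell level was below the B cell level in 19 of 20 libraries. Eµ-TCL1 spleen 1 had 390 Il10 UMIs in T cells against 14.9 expected, Eµ-PRMT5/TCL1 spleen 4 had 146 against 30.5, and Eµ-PRMT5 spleen 1 had 98 against 1.85. At the other end, Eµ-TCL1 LN 1, the library with the highest B cell level, had 15 against 148. In both last-named libraries the B cells behind the estimate differed from the free RNA. Il10 was at 2.24 CPM in B cells and 23.2 CPM in free RNA of Eµ-PRMT5 spleen 1. In Eµ-TCL1 LN 1 it was at 216.7 and 50.1 CPM. The estimate of 1.85 may thus be too low and that of 148 too high.

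Between CD4 and CD8 T cells, the Il10 level was mostly higher in the CD4 cells. CD4 T cells had a Cd4 UMI and none of Cd8a or Cd8b1, and CD8 T cells the reverse. T cells with both or neither were left out of this comparison. In Eµ-PRMT5 spleen 1, for example, 241 CD4 and 527 CD8 cells were among 1154 T cells. Il10 in the T cells left out was not examined apart. In 14 libraries with at least 20 cells of each kind, Il10 was higher in CD4 than in CD8 T cells in 11, at 0 in both in 2, and higher in CD8 T cells in 1. The median was 21.5 CPM in CD4 and 0.418 CPM in CD8 T cells, and the highest values were 103 and 17.01 CPM, both in Eµ-PRMT5/TCL1 spleen 4. In Eµ-TCL1 spleen 1, 143 of 776 CD4 T cells (18.4%) had an Il10 UMI and Il10 was at 54.6 CPM, against 2.95 CPM in CD8 T cells of the same droplet run, which carry the same free RNA. In Eµ-PRMT5 spleen 1, 23 of 241 CD4 T cells had an Il10 UMI (28.8 CPM), against 1.48 CPM in CD8 T cells. Cells with a Foxp3 UMI were few, and 3 libraries held at least 20. There 1 of 31 such cells carried Il10 in Eµ-PRMT5 spleen 1 (3.91 CPM), 2 of 20 in Eµ-PRMT5 spleen 3 (23.03 CPM) and 6 of 29 in Eµ-PRMT5/TCL1 spleen 4 (197 CPM), where 28 of the 36 Il10 UMIs came from 1 cell.

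**Figure D3:**
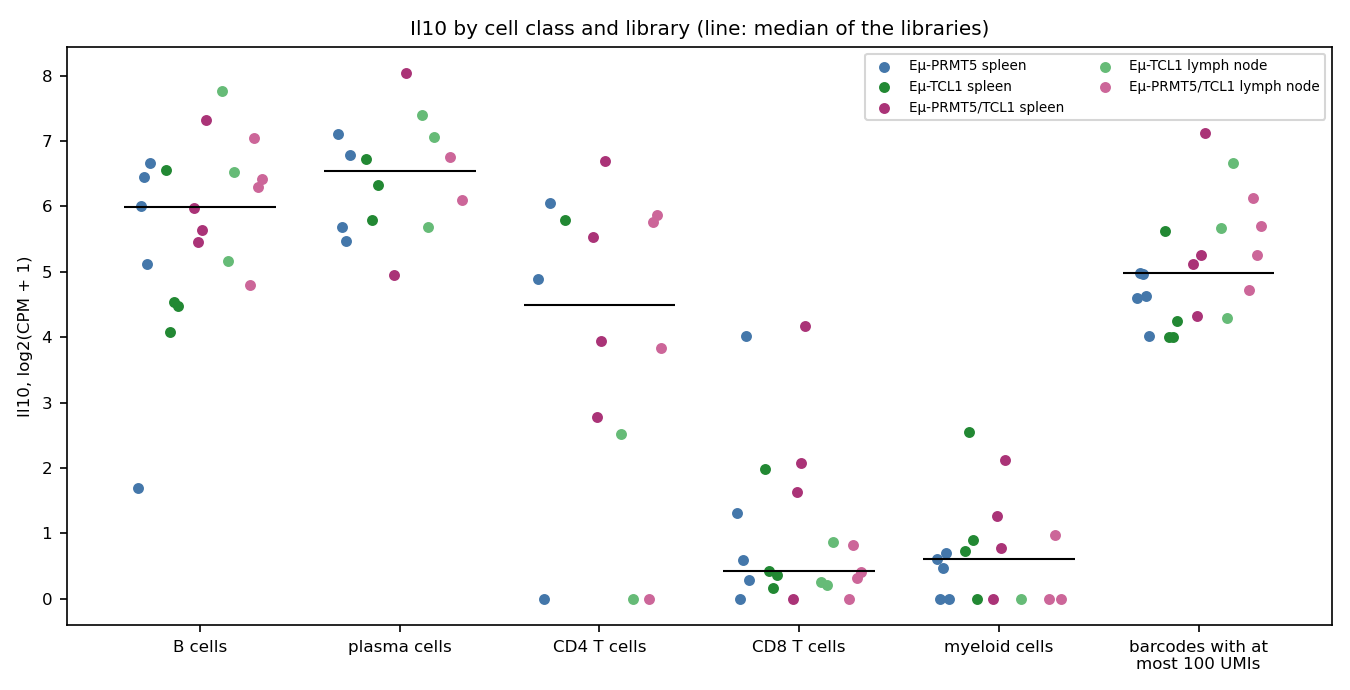
Il10 level (log2(CPM + 1), vertical axis) in 5 cell classes and in barcodes with at most 100 UMIs, which hold free RNA, with 1 point per library with at least 20 cells of the class, coloured by group, and a line at the median of the libraries. B and plasma cells lie highest, CD4 T cells spread from 0 to 103 CPM, and CD8 T and myeloid cells lie lowest, with a highest value of 17.01 CPM in CD8 T cells.

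Between genotypes, 0 of 6 members were called in T cells. For Eµ-PRMT5/TCL1 minus Eµ-TCL1 spleens, edgeR called 0% of 11143 genes and DESeq2 called 2, 763 genes (6.85%) and 1 member had an unadjusted p under 0.05, and 3.72% of genes and 0 members did not overlap. For Eµ-PRMT5 minus Eµ-TCL1 spleens, edgeR called 0.0359%, 6.15% of genes and 1 member had an unadjusted p under 0.05, and 2.19% and 0 members did not overlap. For Eµ-PRMT5/TCL1 minus Eµ-PRMT5 spleens, edgeR called 0% and DESeq2 called 7, and 522 genes (4.68%) and 2 members had an unadjusted p under 0.05. In LN edgeR called 0% of 10450 genes and DESeq2 called 116, 1473 genes (14.1%) and 2 members had an unadjusted p under 0.05, and 9.68% and 0 members did not overlap.

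Among the members in T cells, only Tgfb1 had groups that did not overlap, in 1 of these comparisons. It was 355.6, 371.4, 504.9 and 697.5 CPM in spleens of Eµ-PRMT5/TCL1 mice and 352.1, 273.1, 253.0, 193.9 and 245.1 CPM in those of Eµ-PRMT5 mice, with the closest values at 355.6 and 352.1 CPM and no overlap between the groups. This was a difference of 0.72 ± 0.27 (adjusted p = 0.984, edgeR), and 1.15% of all genes did not overlap between these groups. Il10rb was lower in Eµ-PRMT5/TCL1 than in Eµ-TCL1 spleen T cells, with a difference of -0.63 ± 0.24 (adjusted p = 0.705, edgeR). Il10 there differed by 0.26 ± 1.21, by 3.19 when Eµ-TCL1 spleen 1 was left out, and by -0.76 when Eµ-PRMT5/TCL1 spleen 4 was. CD4 T cells were 776 of 1889 T cells in Eµ-TCL1 spleen 1 and 17 of 811, 9 of 1593 and 1 of 874 in Eµ-TCL1 spleens 2 to 4. The part of this makeup in the Il10 difference was not tested.

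In LN T cells the fitted difference of Il10 was 2.57 ± 0.68 (adjusted p = 0.208, edgeR), on low levels: 0, 3.28, 5.36 and 2.70 CPM in Eµ-PRMT5/TCL1 LN and 0.812, 0.141 and 1.40 CPM in Eµ-TCL1 LN. The value of 0 came from 0 of 66 T cells, which allows a share with an Il10 UMI of up to 4.55% (3 counts of the total, the limit taken for a count of 0). The highest of these levels, in Eµ-PRMT5/TCL1 LN 3, rested on 81 UMIs, of which 19 came from 1 cell. The Ighm-based estimate for free B cell RNA gave 47.8 UMIs there. Ebi3 differed by 1.80 ± 0.64 (adjusted p = 0.286, edgeR) at group means of 3.65 and 1.04 CPM.

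To describe the B cells that carry Il10, those with an Il10 UMI were set against B cells of the same library without one, up to 5 for each and nearest in total UMIs, in the 19 libraries with at least 15 such cells. This compared 5668 with 19936 cells, summed per library and fitted with the library as a block, so that the libraries were the replicates. For 7 mice the 19 libraries hold both tissues, so that the libraries are not all independent mice. In the 12 spleens alone, each from its own mouse, edgeR called 2434 genes. In 15 of 19 libraries this used every B cell without an Il10 UMI, so that depth was not matched there. The Il10-bearing cells were deeper by over 1.1 times in 18 of 19 libraries (ratio of median UMIs 1.00 to 1.97, median 1.43), and values from a match of 1 cell to 1 are therefore given as well. That match, of 5668 with 5668 cells, brought median UMIs within a ratio of 1.1 in 16 libraries and left a gap in 3, of which the widest were 10026 against 6866 UMIs in Eµ-TCL1 LN 1 and 7451 against 5850 in Eµ-PRMT5/TCL1 spleen 4. Of 9711 genes tested, edgeR called 18.3% higher and 16.9% lower in Il10-bearing cells, and 2105 of its 3413 calls were also made, in the same direction, with 1 matched cell. With 1 matched cell, 15.1% of 8853 genes were called higher and 14% lower.

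Of the members, Il10ra differed most in this comparison: B cells with an Il10 UMI held less RNA of the IL-10 binding receptor chain. The Il10ra level ranged from 3.25 to 61.8 CPM (median 21.4) in Il10-bearing cells and from 9.55 to 79.6 CPM (median 37.99) in the cells matched 1 to 1. It was lower in Il10-bearing cells in 18 of 19 libraries, for example 26.3 against 37.99 CPM in Eµ-TCL1 spleen 2, 14.02 against 40.3 CPM in Eµ-PRMT5 spleen 3 and 43.5 against 78.4 CPM in Eµ-PRMT5/TCL1 spleen 3. The exception was Eµ-PRMT5/TCL1 LN 1, at 26.5 against 21.4 CPM. Against up to 5 cells each it was lower in 19 of 19.

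Against up to 5 cells each, the edgeR difference of Il10ra was -0.87 ± 0.10 (adjusted p = 7.2e-07), among the 10 largest falls of all genes by the naming rule. With 1 matched cell it was -0.75 ± 0.09 (adjusted p = 3.9e-07), lower in 18 of 19 libraries, and -0.76 in the 16 libraries with closely matched depth. Tgfb1 was also lower, with a difference of -0.27 ± 0.07 (adjusted p = 0.0036), and of -0.24 with 1 matched cell (adjusted p = 0.00365). Ebi3 was higher by 0.24 ± 0.07 (adjusted p = 0.0141), but with 1 matched cell the difference was 0.07 with an adjusted p of 0.488. Tgfbr2 gave 0.09 ± 0.04 (adjusted p = 0.0631), and 0.17 with 1 matched cell (adjusted p = 0.000941). Il10rb was not called in either match, at -0.15 ± 0.07 (adjusted p = 0.0787) and -0.03 (adjusted p = 0.818). These p-values are all from edgeR.

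Genes were named from those called, with at least 20 CPM in either kind of cell and the same direction in at least 80% of libraries, which 813 of the 1775 higher and 560 of the 1638 lower genes met. The 10 that rose most among these were Egr2 (1.68 ± 0.21), Egr1 (1.47 ± 0.19), Myc (1.41 ± 0.11), Egr3 (1.39 ± 0.17), Maff (1.33 ± 0.13), Rasd1 (1.29 ± 0.22), Nr4a3 (1.29 ± 0.21), Nr4a1 (1.21 ± 0.14), Plk3 (1.18 ± 0.09) and Nfkbid (1.18 ± 0.13). Egr1, Egr2, Egr3, Nr4a1 and Nr4a3 encode transcription factors that B cells switch on within hours of antigen receptor stimulation, Myc drives growth and division, and Nfkbid encodes IκBNS, a nuclear regulator of NF-κB. Myc ranged from 140 to 1436 CPM (median 282) in Il10-bearing and from 40.7 to 503 CPM (median 94.4) in cells matched 1 to 1, and was higher in 19 of 19 libraries, as were Maff and Plk3. All 10 were called with 1 matched cell as well, from 1.14 for Plk3 to 1.75 for Egr2. The stress gene Hspa1a (0.85 ± 0.26) and the dissociation-sensitive genes Fos (1.03 ± 0.17) and Dusp1 (0.81 ± 0.13) were higher too. Hspa1a and Dusp1 were chosen after their values were seen. The part of antigen receptor stimulation or of tissue handling in any of these rises, those of the 10 genes included, was not tested.

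The 10 that fell most among the 560 were Lyz2 (-2.37 ± 0.34), Alox5ap (-1.63 ± 0.21), Neurl3 (-1.36 ± 0.19), Lgals3 (-1.04 ± 0.21), Tmem51 (-1.02 ± 0.12), Tubb3 (-1.02 ± 0.13), Ighd (-0.91 ± 0.14), Clcf1 (-0.89 ± 0.12), Il10ra and Anxa2 (-0.83 ± 0.13). All 10 were called with 1 matched cell too, where Lyz2 gave -3.09, Alox5ap -1.91, Neurl3 -0.70 (lower in 15 of 19 libraries), Ighd -0.65, Clcf1 -0.62 and the other genes between -1.17 and -0.74. Ighd is the δ heavy chain of naive B cells, and Lyz2 and Lgals3 are known from myeloid cells. With Lyz2, the summed level of 10 neutrophil markers had a median of 22.2 CPM in Il10-bearing cells (range 0 to 4597) and of 92.6 CPM in cells matched 1 to 1 (0 to 18944), and was higher in Il10-bearing cells in 4 of 19 libraries. The monocyte/macrophage marker sum had medians of 71.2 and 105 CPM. The part of myeloid RNA in these falls was not tested. Plasma cell markers were higher in sum in 17 of 19 libraries (medians 1776 and 1577 CPM), although cells with 20 or more Jchain UMIs were left out. Summed B cell markers were higher in 8 of 19 libraries in this match (medians 20916 and 21211 CPM) and in 0 of 19 against up to 5 cells each (23038 CPM in those). The share of mitochondrial UMIs was higher in 3 of 19 libraries in either match (median 3.79% against 3.99% with 1 cell and 4.17% with up to 5).

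**Figure D4:**
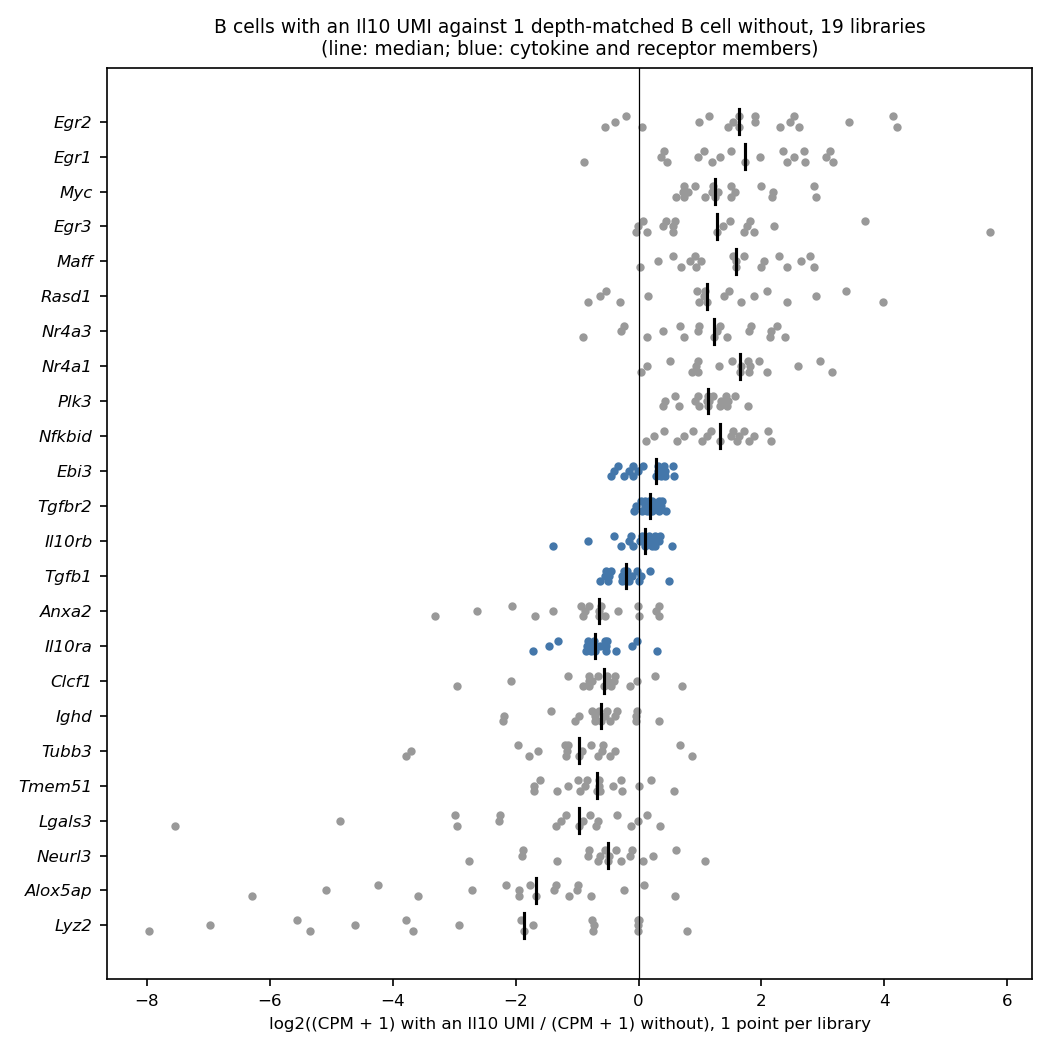
Difference between B cells with an Il10 UMI and B cells without, matched 1 to 1 (log2 ratio of CPM + 1, horizontal axis), for the 20 named genes and the 4 further members tested, with 1 point per library (19) and a bar at their median; members are in blue. All but 1 of the 19 Il10ra points lie left of 0 and the Myc, Maff and Plk3 points all right of it, while Ebi3 and Il10rb are spread around 0.

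Several lists of pathway genes were read in the comparison with up to 5 cells each, where the median difference over all 9711 genes was -0.0017, and 18.3% of all genes were called higher and 16.9% lower. Of 15 transcription factors known to act on Il10, 13 were tested, 7 were higher and 3 lower, with a median of 0.40. Irf4, which B cells need to make IL-10 and to become plasma cells, was higher by 1.04 ± 0.08 in 19 of 19 libraries (adjusted p = 3.3e-09). Fos, Bhlhe40 (0.81 ± 0.10), Batf (0.48 ± 0.08), Prdm1 (0.47 ± 0.08), Ahr (0.46 ± 0.10) and Jun (0.40 ± 0.11) were the other higher ones. Bhlhe40 is known as a repressor of Il10 in T cells. Ets1 (-0.35 ± 0.07), Hif1a (-0.28 ± 0.06) and Stat3 (-0.13 ± 0.05) were lower, Stat3 without a call when 1 cell was matched, where 7 of the 13 were higher and 2 lower.

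Of 9 genes of IL-10 receptor signalling, all tested, 6 were lower and 1 higher, with a median of -0.21, beside 16.9% lower and 18.3% higher over all genes. Among those lower were Jak1 (-0.21 ± 0.05), Pik3r1 (-0.28 ± 0.07), Il4ra (-0.26 ± 0.07), Bcl3 (-0.24 ± 0.07) and Stat3, and the STAT3 target Socs3 was higher (0.38 ± 0.14). With 1 matched cell 1 was lower and 1 higher, Jak1 (-0.11) and Socs3 (0.63). Of 13 genes of TGF-β activation and signalling tested, the repressor Tgif1 was higher (0.46 ± 0.06) and the inhibitor Smad7 lower (-0.32 ± 0.11), the latter with an adjusted p of 0.123 with 1 matched cell. With 1 matched cell 3 of 12 were higher (Tgif1, Skil and Smad4) and 1 was lower (Pmepa1), with a median of 0.063. Of 4 subunits and receptors of the IL-12 family tested, Il12a, the partner of EBI3 in IL-35, was higher (0.43 ± 0.09), as was Il6st (0.33 ± 0.10), and the IL-27 receptor gene Il27ra was lower (-0.72 ± 0.14). Of 4 relatives of the IL-10 receptor tested, Ifngr1 was lower (-0.31 ± 0.07).

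Of 16 markers listed for regulatory and B-1 cells, 13 were tested, 1 was higher and 4 were lower, with a median of -0.08, beside 18.3% and 16.9% over all genes. With 1 matched cell 2 were higher and 3 lower, with a median of -0.04. Cd5, the marker of both B-1 and CLL cells, differed by 0.11 ± 0.08 (adjusted p = 0.313), Cd1d1 by 0.04 ± 0.08 and Cd9 by -0.08 ± 0.07. Ctla4, an inhibitory receptor that B-1 cells also carry, was higher by 1.16 ± 0.13 in 19 of 19 libraries (adjusted p = 6.8e-07), and by 0.97 in 17 of 19 with 1 matched cell. Among those lower were Siglecg (-0.39 ± 0.07), Spn (-0.35 ± 0.06) and Zbtb32 (-0.25 ± 0.07). Of 8 other regulatory genes tested, the inhibitory ligand gene Cd274 (PD-L1) was higher (0.50 ± 0.06, adjusted p = 1.1e-06), as was Ctla4, and Nt5e, which encodes the adenosine-forming enzyme CD73, was lower (-0.61 ± 0.13), as was Lgals1 (-0.26 ± 0.10). All adjusted p-values are from edgeR.

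Between genotypes and tissues these lists held 1 called gene in all. It was Jun in T cells, higher in Eµ-PRMT5 than in Eµ-TCL1 spleens by 2.16 ± 0.27 (89.3 against 19.7 CPM, adjusted p = 0.0154, edgeR). The call of Jun held in 8 of 14 other settings. It was lost with barcodes from 500 UMIs and on leaving out spleen 1 or 3 of the Eµ-PRMT5 mice. Leaving out spleen 1, 2 or 4 of the Eµ-TCL1 mice lost it too. Over all 14 settings the difference ran from 2.06 to 2.32, with an adjusted p of up to 0.136 (edgeR). In B cells, 0 genes of the 7 lists were called by edgeR in any comparison. In Eµ-PRMT5 minus Eµ-TCL1 spleens, 17.1% of all genes had an unadjusted p under 0.05 (edgeR). Beside this stood 6 of 14 genes of the TGF-β list, 6 of 14 of the transcription factors and 3 of 5 of the IL-10 family. The other lists had 1 of 9, 1 of 4, 2 of 9 and 2 of 16. In LN minus spleen, beside 11.2% of all genes, it was 3 of 4 for the IL-12 family, 5 of 16 for the markers and 0 to 3 genes for each other list. In Eµ-PRMT5 minus Eµ-TCL1 spleens the TGF-β list had a median of 0.71 with 12 of 14 genes higher, the transcription factors known to act on Il10 0.69 with 12 of 14 higher, and the IL-12 family list -0.69 with 3 of 4 lower, beside 0.016 over all genes. The regulatory and B-1 markers had -0.38 there with 11 of 16 lower. The IL-10 family list had 0.76 with 5 of 5 higher, and the 5 tested were genes of the related interferon receptors (Ifnlr1, Ifngr1, Ifngr2, Ifnar1 and Ifnar2). Without Eµ-PRMT5 spleen 4, whose B cells stood apart, 318 of all genes were called, among them Tgif1, Cr2 and Fcer2a of these lists, and the medians were 0.84 for the TGF-β list, 0.75 for the transcription factors, -0.77 for the IL-12 family, 0.63 for the IL-10 family and -0.25 for the markers. In LN minus spleen the IL-12 family list had -0.75 with 4 of 4 lower, beside 0.015. In LN T cells the other regulatory genes had a median of 1.07 with 11 of 12 higher in Eµ-PRMT5/TCL1 than in Eµ-TCL1 mice, and the transcription factors 0.72 with 13 of 14 higher, again with 0 called, beside -0.0047 over all genes.

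Over the 13 spleens, the genes with a B cell level most like that of Il10 were Atxn7l1 (Pearson r = 0.87), Plscr1 (0.86), Rap1gap (0.85), Gm10552 (0.84) and Pvt1 (0.84), among 5666 genes with a mean of at least 20 CPM, where the median r was -0.04. They were chosen as the 5 highest of many, and their r over the 7 LN was -0.01, 0.60, 0.54, -0.74 and -0.06 in the same order. Cd5, named after its value was seen, had 0.82 in spleens and 0.26 in LN. Of the members, Ebi3 had r = 0.48 in spleens, where Spearman's rho was 0.099, and r = 0.63 in LN, and Tgfb1 had r = -0.58 in spleens (rho -0.52) and -0.06 in LN. The points are libraries that differ in genotype and depth, and 3 of the named genes did not keep the sign of r in LN.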

How the data were processed

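Cells were captured with the 10x 3′ chemistry. Per the labels, the submitters' processing notes name Cell Ranger 2.0.1, Seurat 2.2.1 and GRCm38. The deposited files hold whole-number UMI counts per gene and barcode, not normalized and unfiltered. A barcode was kept as a cell if it had over 0.1 of the UMIs of the 99th percentile among the 3000 largest, 200 or more genes detected and no more than 10% of UMIs from mitochondria, and the highest-scoring doublets (Scrublet) were removed at 0.8% per 1000 cells. The members and gene lists were chosen with earlier results of these data known, and some listed genes are counted but not reported by name here.

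Plasma cells had at least 20 Jchain and 2 Mzb1 plus Xbp1 UMIs. T cells had at least 2 Cd3 UMIs and at most 1 of Cd79. Myeloid cells had at least 5 UMIs of Tyrobp, Fcer1g and Lyz2, no Cd3 and at most 2 of Cd79. Levels were given for at least 20 cells. Counts were summed per library and class and tested in R 4.3.3 with edgeR 4.0.16 (TMM, quasi-likelihood, filterByExpr) over all genes, with DESeq2 1.42.0 as an alternative. All 3 spleen groups shared 1 fit, as did the LN groups. LN and spleen were compared with the mouse as a block, since the labels tie them to 1 animal (correlation of deviations 0.271 to 0.638 in 7 of 7 mice). Named genes were the 10 with the largest rise and the 10 with the largest fall in the comparison of B cells with and without an Il10 UMI, among genes called there with at least 20 CPM and 1 direction in at least 80% of libraries, and the 5 genes most correlated with Il10 over spleens. Scripts were tested on simulated data. With spleen B cells, 0% of 1.5-fold, 8.96% of 2-fold and 72.7% of 4-fold changes were recovered, beside 6 false calls. A lack of calls there is thus no evidence that levels were equal. Between tissues of a mouse the recovered shares were 20.9%, 91% and 100%, beside 10 false calls. For B cells split by Il10 UMIs they were 100% at each size, beside 16 false calls.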

Additional observations from a re-analysis of the deposited data

Results flagged for a closer look

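In groups of 4 to 10 libraries, a level was singled out where its gap to the nearest other library took up more of the group's range than Dixon's 95% critical value allows. This held for 6 of 72 groups (8.33%). The critical value is set for 1 in 20 where values are normal and groups independent. These groups share libraries and hold untransformed CPM, so their chance rate is not known. For Il10 in B cells, Eµ-TCL1 spleen 1 (93.4 CPM) lay above the next of its group (22.3 CPM), and Eµ-PRMT5/TCL1 spleen 4 (158.2 CPM) lay above the next of its own (62.0 CPM). Il10 in T cells was also highest in Eµ-TCL1 spleen 1 (35.3 CPM, next 4.02 CPM), so that this mouse stood out in both classes. Its T cells differed in makeup, with 776 CD4 T cells of 1889, against 17 of 811, 9 of 1593 and 1 of 874 in spleens 2 to 4. Those spleens held too few CD4 T cells for a level, so CD4 T cells could not be compared within this group. In Eµ-PRMT5/TCL1 LN 1, which held 66 T cells, T cells gave 95.8 CPM of Il10ra (next 29.4 CPM) and 103.6 CPM of Il10rb (next 52.9 CPM). Ebi3 in plasma cells was 82.2 CPM in Eµ-PRMT5 spleen 5, from 24 cells, against 18.8 CPM in the next.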

How the results depend on the processing

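Of 366 values of the members under other settings (DESeq2, low-count filters, gates, barcode limits, size factors and blocks), 2 were called and 10 changed sign, and of 436 values with 1 library left out, 1 was called and 46 changed sign. All values that changed sign had been uncalled, with a difference of at most 0.921, and the cause was not tested. Over all genes, DESeq2 called 679 in B cells of Eµ-PRMT5 minus Eµ-TCL1 spleens (edgeR 3, and 318 or 69 without Eµ-PRMT5 spleen 4 or 5), 21 in Eµ-PRMT5/TCL1 minus Eµ-TCL1 spleens (edgeR 1), 113 in Eµ-PRMT5/TCL1 minus Eµ-PRMT5 spleens and 63 between LN (edgeR 0), and in T cells 26 (edgeR 4), 2, 7 and 116 (edgeR 0). Between LN and spleen B cells edgeR called 4, DESeq2 289, and edgeR 83 without the low-count filter, 13 with Jchain under 3, 54 without Eµ-PRMT5/TCL1 LN 1 and 2 with no replicate block. Between LN and spleen B cells, where the main fit called 0 members, Il10ra was called with DESeq2 and without the low-count filter. Il10 was called there without Eµ-PRMT5/TCL1 LN 1.

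Replicate numbers did not pair the libraries: same-numbered spleens had correlations of deviations from -0.060 to 0.179 and LN from -0.117 to 0.186. With the replicate block, B cells gave 0 called members and, over all genes, 22 calls in Eµ-PRMT5 minus Eµ-TCL1 spleens against 3. With the replicate block in B cells the difference became 0.017 for Il10rb in Eµ-PRMT5/TCL1 minus Eµ-TCL1 spleens, 0.0039 for Tgfb1 and -0.066 for Il10ra in Eµ-PRMT5 minus Eµ-TCL1 spleens, and 0.021 for Tgfb1 in LN.

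Ebi3 in Eµ-PRMT5 minus Eµ-TCL1 spleens became 0.021 in B cells with Jchain under 3, 0.096 in B cells with Xist as a covariate and 0.0071 in T cells with DESeq2. Il10ra in B cells there became -0.031 with Xist as a covariate. In LN T cells Tgfbr2 became -0.0050 without the low-count filter and Il10ra 0.10 with barcodes from 500 UMIs and doublets kept.

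With 1 library left out, the share of B cells with an Il10 UMI ran from -3.22 to 0.892 points between LN and from -0.429 to 1.93 points in Eµ-PRMT5 minus Eµ-TCL1 spleens. In B cells of Eµ-PRMT5 minus Eµ-TCL1 spleens, Ebi3 ran from -0.52 to 0.53, Tgfb1 from -0.27 to 0.048 and Il10ra from -0.070 to 0.36. In Eµ-PRMT5/TCL1 minus Eµ-PRMT5 B cells, Il10 ran from -0.082 to 0.70 and Tgfb1 from -0.19 to 0.13. In B cells of Eµ-PRMT5/TCL1 minus Eµ-TCL1 mice, Il10rb ran from -0.19 to 0.085 in spleen, and in LN Il10 from -0.75 to 0.36, Tgfb1 from -0.41 to 0.072 and Il10rb from -0.28 to 0.076. Between LN and spleen B cells, Il10rb ran from -0.013 to 0.17 and Tgfbr2 from -0.096 to 0.13. In T cells of Eµ-PRMT5 minus Eµ-TCL1 spleens, Il10 ran from -1.29 to 2.28, Ebi3 from -0.35 to 0.40 and Il10ra from -0.34 to 0.17. In T cells of Eµ-PRMT5/TCL1 minus Eµ-PRMT5 spleens, Il10 ran from -0.13 to 1.56, Il10rb from -0.27 to 0.013 and Tgfbr2 from -0.30 to 0.034. In T cells of Eµ-PRMT5/TCL1 minus Eµ-TCL1 mice, Il10 ran from -0.76 to 3.19 and Tgfb1 from -0.081 to 0.41 in spleen, and in LN Tgfb1 from -0.25 to 0.60 and Tgfbr2 from -0.12 to 0.11.

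The fall of Il10ra in Il10-bearing B cells was called in all 27 alternatives run (differences -0.91 to -0.75), of which 2, spleens alone and the libraries best matched in depth, were chosen after seeing the data. All levels rest on 20 or more cells, and T cell Il10 rests on as few as 0 or 1 UMI in some libraries, where a lower level could not be told from 0.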
